A study of Homo sapiens with 12 samples.

Results

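Imprinted genes are transcribed mainly or only from the copy inherited from one parent. The 38 genes described here are a list of imprinted genes, given by symbol, and all 38 were matched among the 57820 gene identifiers of the count files. The rule takes the genes by name and uses no measured value, though the list was made with earlier results of these data known, and its members lie at 20 loci. RNA was sequenced from TE10 and Kyse410, established human esophageal squamous carcinoma cell lines, stably infected with a construct for a UHRF1-directed short hairpin (shRNA) or for a scramble hairpin as control. There were 3 libraries of polyadenylated RNA in each of 4 groups: TE10 with the UHRF1 shRNA, TE10 with the scramble, Kyse410 with the UHRF1 shRNA and Kyse410 with the scramble. All 4 groups had thus been infected and carried a hairpin construct, and the labels state neither the number of hairpin sequences nor whether each library had its own culture. The p-values therefore reflect library-to-library spread, which may be technical only.

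Imprinting is set in the germ line as DNA methylation of one parental copy at control regions, and it must be copied at every round of DNA replication to last in the body. UHRF1 binds the hemimethylated DNA left by replication and brings the maintenance methyltransferase DNMT1 to it, and in mouse embryos that lack either protein many imprinted genes lose their restriction to one parental copy. A control region acts on several neighbours at once, such as H19 and IGF2 on chromosome 11, which share enhancers through a methylation-sensitive insulator. A lower value in bulk RNA cannot tell fewer expressing cells from less RNA per cell. The counts add up the RNA of both parental copies, and neither methylation nor the allele of origin was measured, so nothing below says which copy a read came from.

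A few sequences place the members that lead the results. The long non-coding RNA H19 carries the hairpin of miR-675 in its first exon, and MEST carries that of miR-335 in an intron. The 4 mature microRNAs are given with the seed (bases 2 to 8) in capitals, from RefSeq on GRCh38.p14. No 2 of them share a seed, and the libraries of polyadenylated RNA give the host transcripts, not the mature microRNAs.
hsa-miR-675-5p: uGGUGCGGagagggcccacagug
hsa-miR-675-3p: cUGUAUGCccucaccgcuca
hsa-miR-335-5p: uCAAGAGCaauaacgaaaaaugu
hsa-miR-335-3p: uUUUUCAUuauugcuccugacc

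RefSeq windows from 250 bases before to 50 bases after a transcript start were matched for 27 of the 38 members, 60 windows in all, since many members have several starts. CG dinucleotides, the sites that DNMT1 methylates, numbered 18 in the median member window and 14 in the median of all 35116 windows. The 4 windows below belong to members with a single listed start that moved the same way in both lines, with CG in capitals. H19 and FAM50B were higher with the shRNA and PPP1R9A and IGF2R were lower. The windows held 6 CG in H19, 23 in FAM50B, 15 in PPP1R9A and 41 in IGF2R. At least that many were found in 66.3% of all windows for H19, 35.8% for FAM50B, 48.9% for PPP1R9A and 6.69% for IGF2R. The search was for the letters CG, which read the same on both strands. The H19 window lies upstream of the miR-675 hairpin, whose 5p arm maps to chr11:1996800-1996822. Whether these cells use that listed start, and where it lies relative to the H19 control region, was not tested.
H19, chr11:2001217-2001516, - strand: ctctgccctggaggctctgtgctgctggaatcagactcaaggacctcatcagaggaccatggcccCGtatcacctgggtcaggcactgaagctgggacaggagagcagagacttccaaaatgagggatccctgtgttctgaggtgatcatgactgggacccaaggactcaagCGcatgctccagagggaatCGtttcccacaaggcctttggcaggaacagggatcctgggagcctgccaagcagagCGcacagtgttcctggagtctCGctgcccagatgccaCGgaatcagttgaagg
FAM50B, chr6:3849123-3849422, + strand: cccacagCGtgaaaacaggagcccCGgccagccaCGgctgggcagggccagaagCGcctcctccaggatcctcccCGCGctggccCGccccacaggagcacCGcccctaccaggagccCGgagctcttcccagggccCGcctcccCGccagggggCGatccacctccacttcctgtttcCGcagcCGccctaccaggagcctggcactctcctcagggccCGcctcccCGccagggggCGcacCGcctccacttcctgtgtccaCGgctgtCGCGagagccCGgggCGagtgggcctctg
PPP1R9A, chr7:94907344-94907643, + strand: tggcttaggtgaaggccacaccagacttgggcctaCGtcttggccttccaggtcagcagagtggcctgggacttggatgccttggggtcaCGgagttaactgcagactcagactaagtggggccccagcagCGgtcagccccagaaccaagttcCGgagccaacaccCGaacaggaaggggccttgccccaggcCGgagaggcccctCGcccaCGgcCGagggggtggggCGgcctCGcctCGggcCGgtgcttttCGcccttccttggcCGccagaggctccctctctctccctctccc
IGF2R, chr6:159968832-159969131, + strand: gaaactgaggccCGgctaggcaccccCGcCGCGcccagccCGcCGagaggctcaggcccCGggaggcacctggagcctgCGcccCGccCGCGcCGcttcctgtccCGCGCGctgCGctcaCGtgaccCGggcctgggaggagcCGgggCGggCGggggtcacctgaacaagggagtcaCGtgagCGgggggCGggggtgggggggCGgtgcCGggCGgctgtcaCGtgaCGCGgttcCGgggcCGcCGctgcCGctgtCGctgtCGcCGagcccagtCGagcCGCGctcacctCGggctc

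The libraries held 7857662 to 12005229 reads in genes. UHRF1, the targeted gene, averaged 85.9 ± 3.49 CPM in TE10 with the shRNA, against 179 ± 5.34 CPM with the scramble, where CPM is the count scaled by TMM to a common library size and errors are the SD of 3 libraries throughout. Its Kyse410 mean was 42.5 ± 0.892 CPM with the shRNA, against 99.1 ± 3.47 CPM with the scramble. The fall of UHRF1 was −1.06 on the log2 scale in TE10 (SE 0.0526, edgeR adjusted p = 3.22e-23) and −1.22 in Kyse410 (SE 0.0573, edgeR adjusted p = 1.62e-24). Of 8 squamous markers, 6 were above 1 CPM in every library. The list summed to 1473 to 1537 CPM in TE10 with the shRNA and 1606 to 1653 CPM with the scramble, and to 1798 to 1879 CPM in Kyse410 with the shRNA and 1454 to 1483 CPM with the scramble. In TE10 the means with the shRNA were below those with the scramble for KRT5 (8.05 against 67.4 CPM), KRT14 (11.4 against 55.2), KRT6A (219 against 372), TP63 (62.4 against 101), DSG3 (8.18 against 15.8) and SFN (335 against 387), and above them for KRT13 (314 against 184) and PERP (546 against 448). In Kyse410 the mean with the shRNA was below that with the scramble for KRT14 alone (1.30 against 4.39 CPM), and KRT13, the most abundant there, had 1072 CPM with the shRNA against 886 CPM with the scramble. The endothelial marker PECAM1 was not matched to an identifier and was left out. Of the other fibroblast, endothelial, blood and neuronal markers, only COL1A1, CDH5 and ENO2 were above 1 CPM in all libraries. The blood list summed to at most 0.868 CPM in any library. The fibroblast list summed to 49.4 to 56 CPM in TE10 with the shRNA and 43.9 to 47.8 CPM with the scramble, and to 150 to 162 CPM in Kyse410 with the shRNA and 114 to 124 CPM with the scramble. COL1A1 made up most of that sum, COL1A2, COL3A1, DCN and LUM averaged at most 0.216 CPM in any group, and PDGFRB averaged 0.736 CPM with the shRNA against 3.60 CPM with the scramble in TE10 and 3.47 CPM with the shRNA against 5.80 CPM with the scramble in Kyse410. CDH5 averaged 14.1 CPM with the shRNA against 9.13 CPM with the scramble in TE10, and 95.7 CPM with the shRNA against 24.7 CPM with the scramble in Kyse410, with VWF and KDR at 0.394 CPM or less in every group. ENO2 averaged 9.81 CPM with the shRNA against 13.5 CPM with the scramble in TE10, and 22.9 CPM with the shRNA against 15.1 CPM with the scramble in Kyse410. Mitochondrially encoded RNA took 5.23% of gene reads in TE10 with the shRNA and 6.0% with the scramble, and 3.90% in Kyse410 with the shRNA and 2.38% with the scramble. The part of these shifts in the results below was not tested.

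Of the 38 members, 24 had enough reads to be tested and 14 did not. With the shRNA, TE10 cells had more H19, MEST, BLCAP and FAM50B RNA and less PEG10, SGCE, PPP1R9A, GRB10, PLAGL1 and CDKN1C RNA. Kyse410 cells shared these shifts apart from MEST, with a larger rise of H19 and a 4.77-fold rise of IGF2. In TE10, 5 of the 24 passed an adjusted p of 0.05 upward and 11 downward in edgeR's quasi-likelihood test, where 18.8% of all 16060 genes tested passed upward and 20.0% downward. Called either way were 16 of 24 members, against 38.8% of all genes tested. In Kyse410, 8 passed upward and 11 downward, against 22.6% and 26.7% of all genes, and 19 of 24 were called either way, against 49.3%. The shRNA and scramble libraries did not overlap for 16 members in TE10 (5 higher, 11 lower), against 46.9% of all genes, and for 17 in Kyse410 (6 higher, 11 lower), against 55.6%. The median log2 fold change of the tested members was −0.09 in TE10 and −0.05 in Kyse410, against 0.00 and −0.03 over all genes. The members thus moved in both directions and their median stayed close to that of all genes, while their median absolute log2 fold change was 0.38 in TE10 and 0.43 in Kyse410, against 0.24 and 0.27 over all genes.

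By pair of calls, 4 members were higher in both lines (BLCAP, FAM50B, H19 and IGF2) and 8 were lower in both (CDKN1C, GNAS, GRB10, IGF2R, PEG10, PLAGL1, PPP1R9A and SGCE). MEST was higher in TE10 and lower in Kyse410, and SLC22A18 and TP73 were lower in TE10 and higher in Kyse410. With all libraries, ZDBF2 passed in TE10 alone and INPP5F, MKRN3, PHLDA2 and UBE3A passed in Kyse410 alone. COPG2, KCNQ1OT1, L3MBTL1 and NNAT passed in neither line. Whether a response differed between the lines was tested as the difference of the 2 fold changes (Kyse410 minus TE10), which passed for 10 members upward and 5 downward, 15 of 24, against 19% and 19.9% of all genes (38.9% either way).

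**Figure D1:**
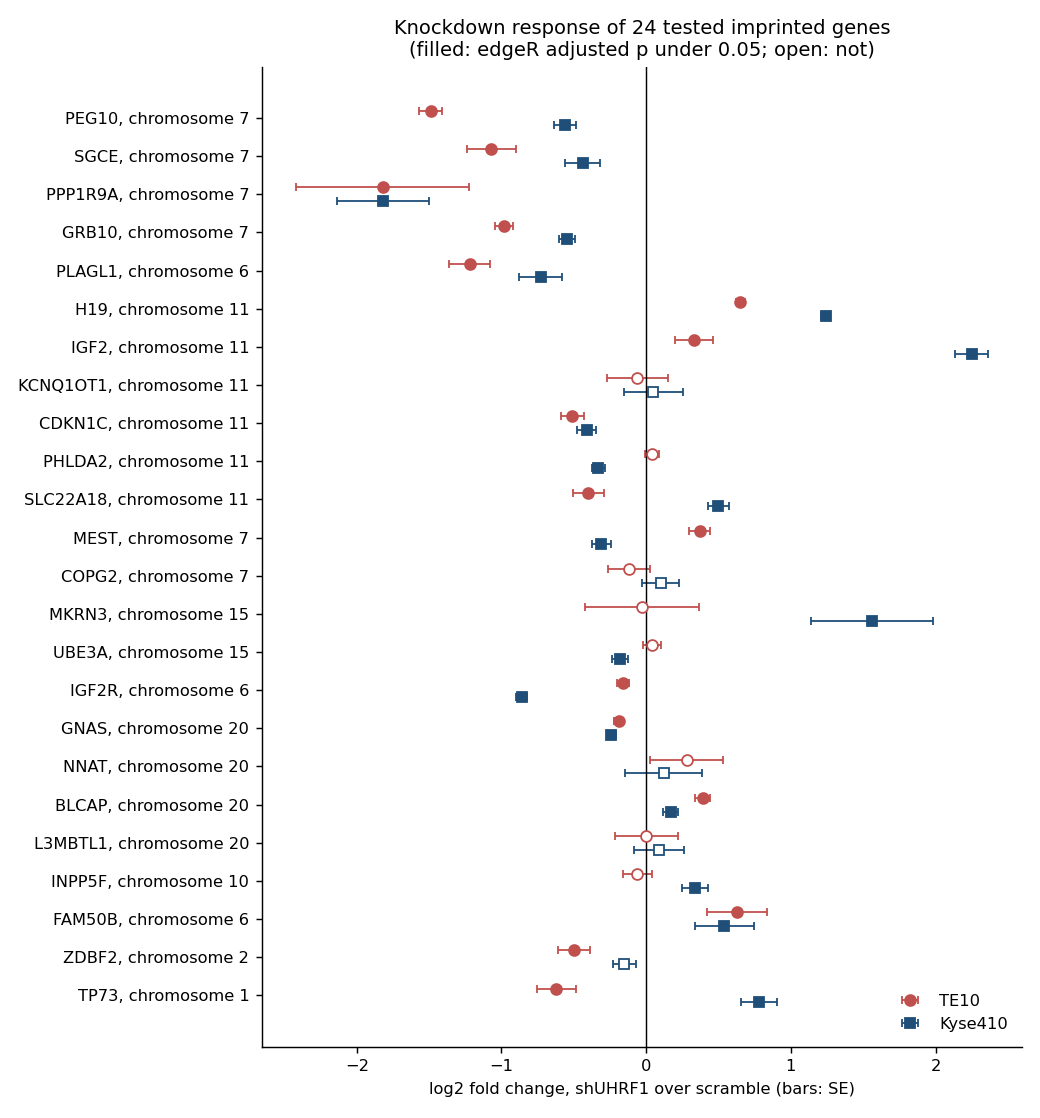
The log2 fold change of shUHRF1 over scramble is plotted for each of the 24 tested members, ordered by locus, with circles for TE10, squares for Kyse410, bars for the SE, and filled symbols where edgeR's adjusted p was under 0.05. PEG10, SGCE, PPP1R9A, GRB10 and PLAGL1 lie left of 0 in both lines, H19 and IGF2 lie right of it, and SLC22A18, MEST and TP73 lie on opposite sides in the 2 lines.

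H19 on chromosome 11 is a spliced non-coding RNA expressed from the maternal copy, abundant in fetal tissue and in many tumours. It was by far the most abundant member, and in all 6 Kyse410 libraries no gene had more reads. Among all genes it held rank 2 in the 3 TE10 libraries with the shRNA and rank 5 in the 3 with the scramble. In TE10 it had 10878, 11055 and 10311 CPM with the shRNA, against 6865, 6843 and 6829 CPM with the scramble. Kyse410 cells had 23283, 21006 and 21767 CPM with the shRNA, against 9509, 9355 and 9185 CPM with the scramble. The shRNA libraries were above the scramble libraries without overlap in both lines. H19 took 1.03% of gene reads in TE10 with the shRNA and 0.659% with the scramble, and 2.30% in Kyse410 with the shRNA and 0.961% with the scramble. H19 rose by 0.65 on the log2 scale in TE10 (SE 0.0306, edgeR adjusted p = 3.01e-24) and by 1.24 in Kyse410 (SE 0.0308, edgeR adjusted p = 2.32e-36). The rise was larger in Kyse410 by 0.58 on the log2 scale (SE 0.0435, edgeR adjusted p = 2.68e-16).

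IGF2, the fetal growth factor expressed from the paternal copy at the same locus, was far scarcer. Its Kyse410 values were 381, 402 and 320 reads with the shRNA, against 80, 72 and 81 reads with the scramble. On the CPM scale its Kyse410 values were 34.8, 32.9 and 34.7 with the shRNA, against 6.50, 7.34 and 7.67 with the scramble. The lowest shRNA library was thus above 4 times the highest scramble library in CPM, and the log2 fold change was 2.25 (SE 0.112, edgeR adjusted p = 1.47e-23). In TE10 it had 13.9, 12 and 12.1 CPM with the shRNA, against 10.1, 10.2 and 9.95 CPM with the scramble. These groups did not overlap, but the log2 fold change was only 0.33 (SE 0.133, edgeR adjusted p = 0.0444), and the call was lost with DESeq2 (adjusted p = 0.094), without the filter on low counts (0.126), in a fit of the TE10 libraries alone (0.068) and without any 1 of 7 libraries. The IGF2 response was larger in Kyse410 by 1.93 on the log2 scale (SE 0.173, edgeR adjusted p = 4.6e-13). In Kyse410 both genes of this locus thus rose.

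The ratio of H19 to IGF2 reads per kb of exon was 1511 to 1613 in the Kyse410 libraries with the shRNA and 2883 to 3524 in those with the scramble. In TE10 the ratio was 1890 to 2217 with the shRNA and 1613 to 1653 with the scramble. H19 thus exceeded IGF2 per kb by at least 1511 times in every library. In the annotation at hand, 20.9% of the IGF2 exon bases are shared with the read-through gene INS-IGF2 on the same strand, and how reads on shared bases were counted is not given in the sources used here. INS-IGF2 had 0 reads in all 12 libraries, and IGF2-AS, on the opposite strand, had 7 reads with the shRNA against 6 with the scramble in Kyse410.

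IGF2R encodes the receptor that takes up IGF2 for breakdown in lysosomes and sorts lysosomal enzymes. It is imprinted in mouse, and in human its imprinting varies between people. For Kyse410 they were 226, 221 and 212 CPM with the shRNA, against 400, 388 and 409 CPM with the scramble. In TE10 it had 289, 273 and 284 CPM with the shRNA, against 321, 312 and 313 CPM with the scramble. The shRNA libraries were below the scramble libraries without overlap in both lines, by 0.86 on the log2 scale in Kyse410 (SE 0.0391, edgeR adjusted p = 3.59e-25) and by 0.16 in TE10 (SE 0.0402, edgeR adjusted p = 0.000966). The fall was larger in Kyse410, with a log2 difference of −0.70 (SE 0.0561, edgeR adjusted p = 4.86e-15). In Kyse410 the ligand transcript was thus higher and the receptor transcript lower with the shRNA.

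**Figure D2:**
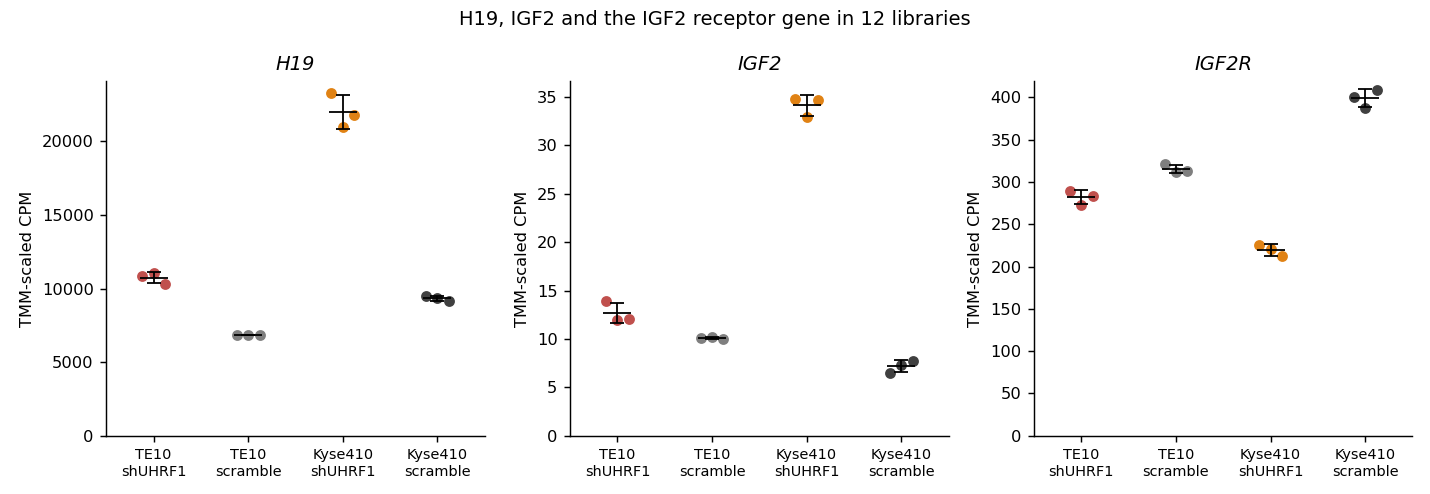
The TMM-scaled CPM of H19, IGF2 and IGF2R is plotted for each of the 12 libraries (points), with the mean and SD of each group of 3 (bars). H19 averaged 22018 CPM and IGF2 34.1 CPM in Kyse410 with the shRNA, above all other groups, and IGF2R was lowest there at 219 CPM.

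Another control region on chromosome 11 is the promoter of KCNQ1OT1, a long antisense RNA of the paternal copy that silences its neighbours on that copy in cis. KCNQ1OT1 itself had 42, 46 and 39 reads in TE10 with the shRNA, against 45, 54 and 47 with the scramble. In Kyse410 it had 43, 61 and 46 reads with the shRNA, against 49, 58 and 38 with the scramble. The groups overlapped in both lines, with a log2 fold change of −0.06 in TE10 (95% interval −0.55 to 0.42, edgeR adjusted p = 0.84) and 0.05 in Kyse410 (−0.42 to 0.53, edgeR adjusted p = 0.85). A shift within these intervals was not detectable at this depth. KCNQ1, in whose intron it lies on the other strand, had 81 reads with the shRNA against 86 with the scramble in TE10, and 208 with the shRNA against 206 with the scramble in Kyse410.

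The 3 maternally expressed neighbours of KCNQ1OT1 did not move together. CDKN1C, which encodes the cyclin-dependent kinase inhibitor p57, had 39.1, 28.8 and 36 CPM in TE10 with the shRNA, against 49.6, 48.9 and 48.8 CPM with the scramble. The Kyse410 libraries had 61.9, 59.2 and 59.5 CPM with the shRNA, against 83.1, 75.4 and 81.4 CPM with the scramble. It fell without overlap by 0.51 on the log2 scale in TE10 (SE 0.0818, edgeR adjusted p = 1.24e-06) and by 0.41 in Kyse410 (SE 0.0657, edgeR adjusted p = 5.64e-07). The difference of these falls did not pass (0.09, 95% interval −0.15 to 0.34, edgeR adjusted p = 0.518).

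SLC22A18, an organic cation transporter gene, went opposite ways. In TE10 it had 16.4, 20.1 and 17.2 CPM with the shRNA, against 25.2, 23.4 and 22.3 CPM with the scramble, a log2 change of −0.40 (SE 0.107, edgeR adjusted p = 0.00227). Kyse410 cells had 65.6, 60.2 and 64.6 CPM with the shRNA, against 45.1, 39.9 and 49.7 CPM with the scramble, a log2 change of 0.50 (SE 0.0737, edgeR adjusted p = 1.22e-07). The difference between the lines was 0.89 on the log2 scale (SE 0.13, edgeR adjusted p = 1.31e-07). Its antisense partner SLC22A18AS overlaps 4.27% of its exon bases and had 168 reads with the shRNA against 169 with the scramble in TE10, and 516 with the shRNA against 325 with the scramble in Kyse410. PHLDA2, a growth-restricting gene of the placenta, was the most abundant coding member per kb of exon in all 4 groups. It averaged 220 ± 10.1 CPM in TE10 with the shRNA and 215 ± 1.66 CPM with the scramble, where the groups overlapped, and 180 ± 9.94 CPM in Kyse410 with the shRNA and 225 ± 9.65 CPM with the scramble. Its fall in Kyse410 was 0.33 on the log2 scale (SE 0.0445, edgeR adjusted p = 1.62e-08), and it differed from the TE10 value by −0.36 (SE 0.0639, edgeR adjusted p = 6.3e-06).

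The listed members of the chromosome 7 cluster around PEG10 fell in both lines. Nearby, CASD1 averaged 8.32 CPM with the shRNA against 10.7 CPM with the scramble in TE10, and 10.4 against 14.2 CPM in Kyse410. In the same order, PON2 averaged 49.3 against 74.4 CPM in TE10 and 46.5 against 44.6 CPM in Kyse410. PON3 averaged 1.82 against 2.73 CPM in TE10 and 3.95 against 2.58 CPM in Kyse410. PEG10, a retrotransposon-derived gene of the paternal copy that is needed for the mouse placenta, had 26.8, 30.4 and 23.5 CPM in TE10 with the shRNA, against 75.6, 73.8 and 77.2 CPM with the scramble. Its Kyse410 values were 28.9, 29 and 30.2 CPM with the shRNA, against 43.0, 42.6 and 43.8 CPM with the scramble. It fell without overlap by 1.49 on the log2 scale in TE10 (SE 0.0787, edgeR adjusted p = 4.01e-22) and by 0.56 in Kyse410 (SE 0.0764, edgeR adjusted p = 1.83e-08). Its levels with the shRNA were close in the 2 lines (26.9 ± 3.47 CPM in TE10 with the shRNA and 29.4 ± 0.689 CPM in Kyse410 with the shRNA), while those with the scramble were apart.

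SGCE, the epsilon-sarcoglycan gene, starts next to PEG10 in the other direction and is also expressed from the paternal copy. It had 4.58, 6.39 and 5.17 CPM in TE10 with the shRNA, against 12.3, 11.1 and 10.8 CPM with the scramble. In Kyse410 it had 13.4, 14.3 and 11.1 CPM with the shRNA, against 19.1, 18.2 and 15.7 CPM with the scramble. The log2 fold change was −1.07 in TE10 (SE 0.167, edgeR adjusted p = 5.07e-07) and −0.44 in Kyse410 (SE 0.121, edgeR adjusted p = 0.0019). For both genes the fall was larger in TE10, with a difference (Kyse410 minus TE10) of 0.93 for PEG10 (edgeR adjusted p = 9.96e-10) and 0.63 for SGCE (edgeR adjusted p = 0.0123). That of SGCE was lost with DESeq2 (adjusted p = 0.0584) and without TE10 shRNA replicate 1 (edgeR adjusted p = 0.0618).

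PPP1R9A, the neurabin gene of the same cluster, was scarce. It had 1, 3 and 3 reads in TE10 with the shRNA, against 13, 5 and 10 reads with the scramble, and 11, 14 and 13 reads in Kyse410 with the shRNA, against 38, 50 and 47 reads with the scramble. The groups did not overlap in CPM in either line. The log2 fold change was −1.82 in both TE10 (SE 0.597, edgeR adjusted p = 0.0125) and Kyse410 (SE 0.318, edgeR adjusted p = 3.51e-06). In TE10 the call was lost without scramble replicate 1 (edgeR adjusted p = 0.095) or shRNA replicate 1 (0.0795). The exons of PEG10 and SGCE overlap on opposite strands over 3.27% of the PEG10 exon bases.

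GRB10 encodes an adaptor that dampens insulin and IGF receptor signalling, with imprinting that depends on the isoform and tissue. It had 59.0, 56.7 and 54.5 CPM in TE10 with the shRNA, against 108, 116 and 110 CPM with the scramble. The values in Kyse410 were 77.6, 73.8 and 81.5 CPM with the shRNA, against 108, 110 and 122 CPM with the scramble. The groups did not overlap, and it fell by 0.98 on the log2 scale in TE10 (SE 0.0622, edgeR adjusted p = 6.67e-19) and by 0.55 in Kyse410 (SE 0.0555, edgeR adjusted p = 3.26e-12). The fall was larger in TE10 by 0.42 (SE 0.0833, edgeR adjusted p = 4.41e-05). Its neighbour DDC, which makes dopamine and serotonin, had at most 2 reads in any library.

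PLAGL1 on chromosome 6 encodes a zinc finger transcription factor of the paternal copy, which in mouse controls other imprinted genes. It had 8.27, 8.05 and 6.50 CPM in TE10 with the shRNA, against 18.6, 17.4 and 17.5 CPM with the scramble. The Kyse410 libraries had 5.93, 6.23 and 5.97 CPM with the shRNA, against 9.26, 11.8 and 9.10 CPM with the scramble. It fell without overlap by 1.22 on the log2 scale in TE10 (SE 0.144, edgeR adjusted p = 6.59e-10) and by 0.73 in Kyse410 (SE 0.149, edgeR adjusted p = 4.95e-05). The difference between the lines did not pass (0.50, 95% interval 0.02 to 0.97, edgeR adjusted p = 0.0558), but did with upper-quartile scaling (0.0336) and without Kyse410 scramble replicate 2 (0.0206).

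**Figure D3:**
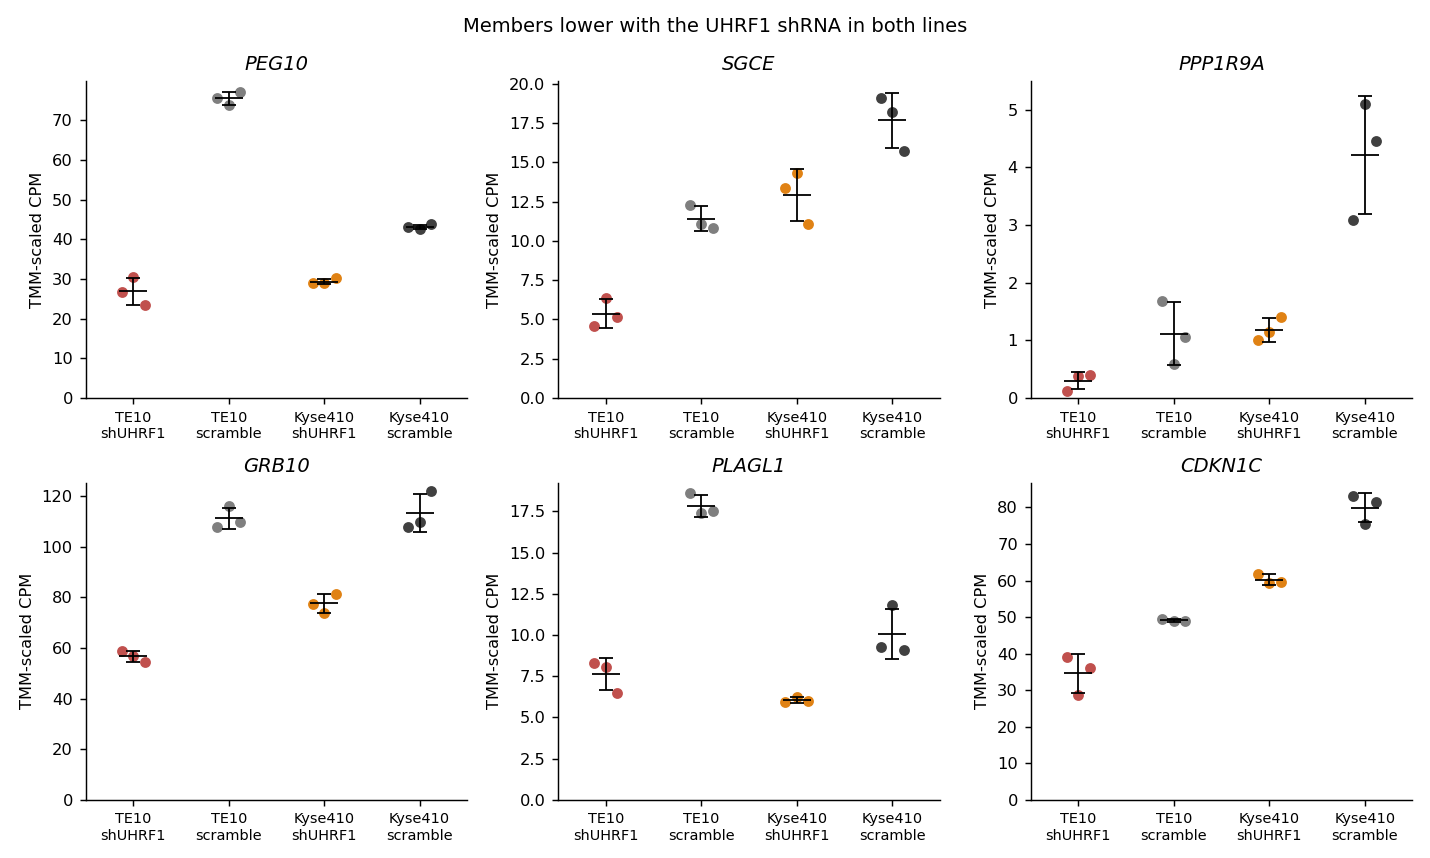
The TMM-scaled CPM of 6 members is plotted for each library (points), with the mean and SD of each group of 3 (bars). In each panel and line all 3 shRNA libraries lie below all 3 scramble libraries, as for PEG10 at 26.9 CPM against 75.5 CPM in TE10.

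MEST and COPG2 are neighbours on chromosome 7. MEST, a hydrolase-like gene of the paternal copy, had 61.2, 59.5 and 60.0 CPM in TE10 with the shRNA, against 49.1, 48.0 and 42.7 CPM with the scramble. Kyse410 cells had 48.7, 47.8 and 44.3 CPM with the shRNA, against 62.2, 57.8 and 54.7 CPM with the scramble. The groups did not overlap in either line and the directions were opposite. The log2 fold change was 0.37 in TE10 (SE 0.0728, edgeR adjusted p = 3.43e-05) and −0.31 in Kyse410 (SE 0.0677, edgeR adjusted p = 0.00012), with a difference of −0.69 (SE 0.0994, edgeR adjusted p = 1.26e-07). A gene annotated as AC007938.2 covers 12.6% of the MEST exon bases on the opposite strand. It had 365 reads with the shRNA against 333 with the scramble in TE10, and 476 with the shRNA against 629 with the scramble in Kyse410, the same order as MEST, and reads from the 2 strands may not be told apart in these counts. COPG2, a coatomer subunit gene whose imprinting is disputed, averaged 9.84 ± 1.24 CPM in TE10 with the shRNA and 10.7 ± 0.572 CPM with the scramble, and 11.8 ± 0.425 CPM in Kyse410 with the shRNA and 11 ± 0.56 CPM with the scramble, and passed in neither line.

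TP73, a p53-family transcription factor gene with disputed imprinting, also responded in opposite directions. It had 12, 11.9 and 9.55 CPM in TE10 with the shRNA, against 18.7, 16.6 and 16.2 CPM with the scramble. In Kyse410 it had 17.1, 13.8 and 17.1 CPM with the shRNA, against 8.78, 8.87 and 10.1 CPM with the scramble. The log2 fold change was −0.62 in TE10 (SE 0.134, edgeR adjusted p = 0.000157) and 0.78 in Kyse410 (SE 0.127, edgeR adjusted p = 7.55e-07), and the difference was 1.40 (SE 0.184, edgeR adjusted p = 1.15e-08). The knockdown thus went with TP73 at 16 CPM in Kyse410 and 11.1 CPM in TE10, where the scramble levels were 9.26 CPM in Kyse410 and 17.2 CPM in TE10.

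**Figure D4:**
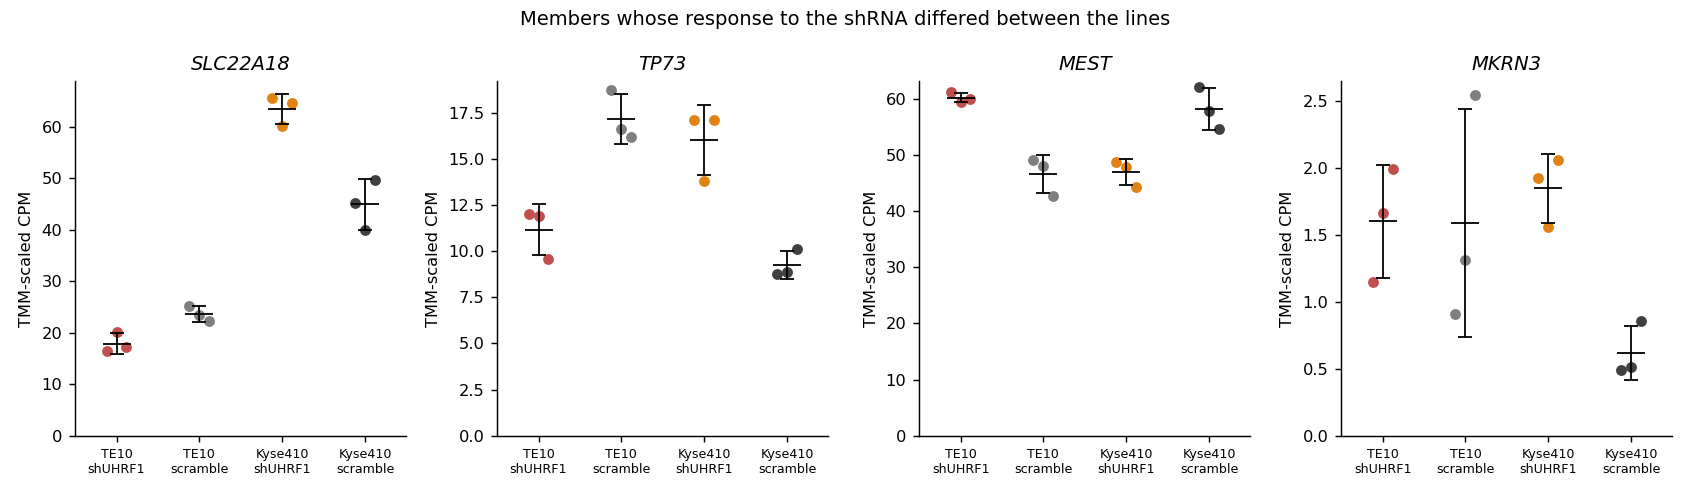
The TMM-scaled CPM of SLC22A18, TP73, MEST and MKRN3 is plotted for each library (points), with the mean and SD of each group of 3 (bars). For SLC22A18 and TP73 the shRNA libraries are below the scramble libraries in TE10 and above them in Kyse410, and for MEST the order is turned, while MKRN3 separates in Kyse410 alone.

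Of the listed members in the chromosome 15 cluster of the Prader-Willi and Angelman syndromes, only MKRN3 and UBE3A had enough reads to be tested. NDN, MAGEL2 and ATP10A had 0 reads in all 12 libraries. A count of 0 over the 3 libraries of a group allows a level of up to 0.124 CPM in TE10 with the shRNA, 0.113 CPM in TE10 with the scramble, 0.097 CPM in Kyse410 with the shRNA and 0.094 CPM in Kyse410 with the scramble, taking 3 reads as the limit and covering counting error only. SNRPN, which encodes a spliceosomal protein, had at most 7 reads in any library and SNURF at most 1. The 2 genes share a promoter and 69.3% of the SNURF exon bases, and reads on bases shared by genes may be in neither count, so these low counts do not show that the transcript was absent. MKRN3, a ubiquitin ligase gene of the paternal copy that restrains the onset of puberty, had 9, 13 and 15 reads in TE10 with the shRNA, against 7, 11 and 24 with the scramble. For Kyse410 they were 21, 19 and 19 reads with the shRNA, against 6, 5 and 9 with the scramble. These Kyse410 groups did not overlap, a rise of 1.56 on the log2 scale (SE 0.42, edgeR adjusted p = 0.00162), whereas the TE10 groups overlapped (−0.03, 95% interval −0.94 to 0.88, edgeR adjusted p = 0.965). The difference between the lines passed (1.59, SE 0.576, edgeR adjusted p = 0.0258) but was lost with DESeq2 (adjusted p = 0.0978) and without any 1 of 5 libraries. It was 1.04 without TE10 scramble replicate 3.

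UBE3A, a ubiquitin ligase gene that is maternal only in neurons, averaged 94.9 ± 3.81 CPM in TE10 with the shRNA and 92.4 ± 1.92 CPM with the scramble. In Kyse410 it averaged 114 ± 9.87 CPM with the shRNA and 129 ± 6.27 CPM with the scramble, a log2 change of −0.18 (SE 0.0532, edgeR adjusted p = 0.00463) that was lost without shRNA replicate 1 (edgeR adjusted p = 0.0901). SNHG14, the host RNA of this cluster that runs antisense to UBE3A, had 483 reads with the shRNA against 715 with the scramble in TE10, and 572 with the shRNA against 707 with the scramble in Kyse410.

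GNAS, the stimulatory G protein gene whose imprinting depends on the promoter used, averaged 821 ± 20.2 CPM in TE10 with the shRNA and 938 ± 17.1 CPM with the scramble. In Kyse410 it averaged 1003 ± 14.4 CPM with the shRNA and 1184 ± 13.5 CPM with the scramble. It fell without overlap by 0.19 in TE10 (SE 0.0333, edgeR adjusted p = 4.94e-06) and by 0.24 in Kyse410 (SE 0.0324, edgeR adjusted p = 1.34e-08). The counts add up all GNAS promoters, and its imprinted transcripts cannot be read from them. An intron of BLCAP holds NNAT. BLCAP averaged 190 ± 6.27 CPM in TE10 with the shRNA and 145 ± 3.86 CPM with the scramble (log2 0.39, SE 0.0542, edgeR adjusted p = 3.76e-08). In Kyse410 it averaged 141 ± 17.0 CPM with the shRNA and 126 ± 2.71 CPM with the scramble (log2 0.17, SE 0.0534, edgeR adjusted p = 0.00657), where the groups overlapped and the call was lost without shRNA replicate 1 (edgeR adjusted p = 0.239).

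NNAT, neuronatin, had 27 to 40 reads in the TE10 libraries and 21 to 34 in the Kyse410 libraries and passed in neither line (edgeR adjusted p = 0.408 in TE10 and 0.731 in Kyse410). FAM50B, a retrogene on chromosome 6, had 61, 63 and 53 reads in TE10 with the shRNA, against 32, 39 and 55 with the scramble, and 57, 86 and 42 reads in Kyse410 with the shRNA, against 61, 34 and 33 with the scramble. Its log2 fold change was 0.63 in TE10 (SE 0.207, edgeR adjusted p = 0.0118) and 0.54 in Kyse410 (SE 0.205, edgeR adjusted p = 0.0251). In Kyse410 the groups overlapped, and the call was lost with DESeq2 (adjusted p = 0.0928) and without any 1 of 3 libraries. In TE10 it was lost without scramble replicate 1 (edgeR adjusted p = 0.0617). ZDBF2, a zinc finger gene on chromosome 2, averaged 21.3 ± 3.29 CPM in TE10 with the shRNA and 30.1 ± 2.23 CPM with the scramble (log2 −0.50, SE 0.109, edgeR adjusted p = 0.000164), and 46.8 ± 6.03 CPM in Kyse410 with the shRNA and 51.9 ± 5.28 CPM with the scramble (−0.15, SE 0.0825, edgeR adjusted p = 0.121). The Kyse410 fall of ZDBF2 did pass without scramble replicate 3 (−0.23, edgeR adjusted p = 0.0325) and without shRNA replicate 3 (−0.24, edgeR adjusted p = 0.0222). INPP5F, a phosphoinositide phosphatase gene on chromosome 10, averaged 27.2 ± 1.46 CPM in Kyse410 with the shRNA and 21.5 ± 1.40 CPM with the scramble (log2 0.34, SE 0.0908, edgeR adjusted p = 0.00172), and 21.7 ± 0.729 CPM in TE10 with the shRNA and 22.6 ± 0.479 CPM with the scramble, where it did not pass. L3MBTL1, a chromatin reader gene, averaged 5.22 ± 0.865 CPM in TE10 with the shRNA and 5.22 ± 1.93 CPM with the scramble, and 7.98 ± 0.599 CPM in Kyse410 with the shRNA and 7.47 ± 0.0793 CPM with the scramble, and passed in neither line.

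The 14 members that were not tested had few or no reads. PEG3, ZIM2, NDN, MAGEL2, ATP10A, DIRAS3 and NLRP2 had 0 reads in every library. They include the paternal zinc finger gene PEG3 and the RAS-like growth inhibitor gene DIRAS3, both known to be silenced in many tumours. MEG3, DDC, NAP1L5 and SNURF had at most 2 reads in any library, DLK1 at most 3 and SNRPN at most 7. RTL1, a retrotransposon-like gene of the chromosome 14 cluster, was the exception. In TE10 it had 4, 0 and 4 reads with the shRNA, against 10, 14 and 10 reads with the scramble, and it had 0 reads in all 6 Kyse410 libraries. The TE10 sums were 8 reads in shRNA cells and 34 in scramble cells, a ratio of 0.259 after scaling (exact 95% interval 0.104 to 0.571, for counting error only). In a fit with no filter on low counts its log2 fold change in TE10 was −1.92 (SE 0.703, edgeR adjusted p = 0.0354). Of its cluster neighbours, the growth-related non-coding RNA MEG3 had 1 reads with the shRNA against 2 with the scramble in TE10 and the Notch-like gene DLK1 had 0 with the shRNA against 4 with the scramble.

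The lines were also compared without knockdown. Among scramble controls, 11 members were higher in Kyse410 and 6 were lower, 17 of 24, against 36.7% and 37.1% of all genes (73.7% either way), so the share of members that differed was close to that of genes at large. The groups did not overlap for 19 members (12 higher, 7 lower in Kyse410), against 76.1% of all genes. Per kb of exon the same 3 members led in both lines. H19 was at 3230 CPM per kb in Kyse410 and 2360 CPM per kb in TE10, PHLDA2 at 236 in Kyse410 and 225 in TE10, and GNAS at 88.9 in Kyse410 and 70.4 in TE10. PHLDA2 did not differ between the lines (log2 0.07, 95% interval −0.03 to 0.17, edgeR adjusted p = 0.161) and nor did GRB10 (0.02, −0.10 to 0.15, edgeR adjusted p = 0.702), though the PHLDA2 call was gained with size factors of the DESeq2 kind (edgeR adjusted p = 0.0443), with upper-quartile scaling (0.0121) and in a fit of these 6 libraries alone (0.0465).

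PPP1R9A showed the largest difference of the tested members, with 4.21 ± 1.03 CPM in Kyse410 scramble cells and 1.11 ± 0.545 CPM in TE10 scramble cells (log2 1.92, SE 0.34, edgeR adjusted p = 1.89e-06). Its partners in the cluster went separate ways. SGCE was higher in Kyse410, at 17.7 ± 1.74 CPM in Kyse410 scramble cells against 11.4 ± 0.788 CPM in TE10 scramble cells (log2 0.64, SE 0.128, edgeR adjusted p = 1.63e-05). PEG10 was lower in Kyse410, at 43.1 ± 0.581 CPM in Kyse410 scramble cells against 75.5 ± 1.69 CPM in TE10 scramble cells (−0.81, SE 0.0695, edgeR adjusted p = 4.1e-15). At the H19 locus, H19 was higher in Kyse410 (0.45, SE 0.0306, edgeR adjusted p = 6.32e-19) and IGF2 lower (−0.50, SE 0.138, edgeR adjusted p = 0.00129). In the KCNQ1OT1 domain, SLC22A18 was higher in Kyse410 by 0.93 (SE 0.0876, edgeR adjusted p = 9.12e-14) and CDKN1C by 0.71 (SE 0.0697, edgeR adjusted p = 4.57e-13), while KCNQ1OT1 did not pass (−0.36, 95% interval −0.83 to 0.12, edgeR adjusted p = 0.112). PLAGL1 (−0.83, SE 0.13), TP73 (−0.89, SE 0.13) and MKRN3 (−1.39, SE 0.444) were lower in Kyse410, at edgeR adjusted p of 1.44e-07, 2.83e-08 and 0.00465. The MKRN3 call was lost without TE10 scramble replicate 3 (edgeR adjusted p = 0.15). ZDBF2 was higher in Kyse410 by 0.78, L3MBTL1 by 0.52, UBE3A by 0.48, and IGF2R, GNAS and MEST by 0.34, 0.34 and 0.33, BLCAP was lower there by a log2 change of −0.20, and each passed. The L3MBTL1 call was lost without TE10 scramble replicate 2 (edgeR adjusted p = 0.239). NNAT did not pass (−0.56, 95% interval −1.17 to 0.05, edgeR adjusted p = 0.0523) but did without any 1 of 3 libraries, and KCNQ1OT1 passed without Kyse410 scramble replicate 2 (edgeR adjusted p = 0.0192).

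**Figure D5:**
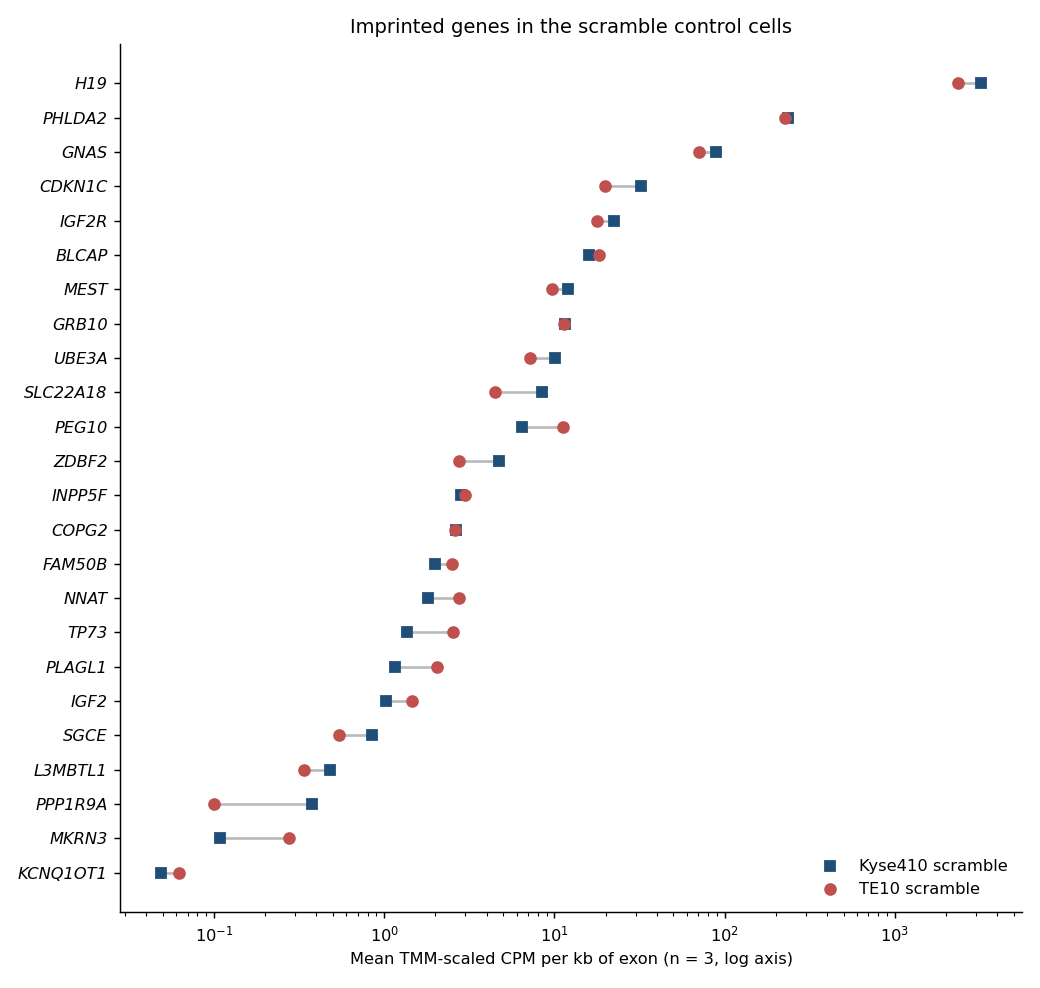
The mean TMM-scaled CPM per kb of exon in the scramble controls is plotted on a log axis for the 24 tested members, with squares for Kyse410 and circles for TE10 (n = 3 each). H19 lies at 3230 in Kyse410 and 2360 in TE10, 10 times or more above every other member, and PPP1R9A shows the widest gap between the lines.

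Factors that keep imprints, with others that add or remove DNA methylation, were read as a second group. Of 28 such genes 23 were tested, with 10 higher and 3 lower in TE10 and 7 higher and 11 lower in Kyse410. Among all genes tested, 18.8% were higher and 20.0% lower in TE10, and 22.6% were higher and 26.7% lower in Kyse410. Called either way, with the targeted UHRF1 counted in, were 56.5% of the list in TE10 and 78.3% in Kyse410, against 38.8% and 49.3% of all genes. DNMT1 rose by 0.19 in TE10 (SE 0.0395) and by 0.25 in Kyse410 (SE 0.0395). UHRF1, a member of this list, had the smallest adjusted p among those that fell in both lines. ZFP42, a pluripotency zinc finger gene that in mouse takes part in the control of some imprinted genes, rose by 3.19 in TE10 (SE 0.18) and by 1.77 in Kyse410 (SE 0.128). TRIM28, the corepressor that protects methylated imprints together with KRAB zinc finger proteins, rose by 0.33 in TE10 (SE 0.0397) and by 0.29 in Kyse410 (SE 0.044). The DNMT1 deubiquitinase gene USP7 rose by 0.46 in TE10 (SE 0.0447) and fell by 0.15 in Kyse410 (SE 0.0457), with a line difference of −0.61 (SE 0.0639). The replication clamp gene PCNA rose by 0.74 in Kyse410 (SE 0.0537) and did not pass in TE10 (0.08, SE 0.0499, edgeR adjusted p = 0.184). The de novo methyltransferase gene DNMT3B rose by 1.10 in Kyse410 (SE 0.0802) and by 0.55 in TE10 (SE 0.0794). ARID4A fell by 0.53 in TE10 (SE 0.124) and by 0.29 in Kyse410 (SE 0.0885), and the UHRF1 paralog UHRF2 fell by 0.28 in TE10 (SE 0.0902) and by 0.24 in Kyse410 (SE 0.0735). ARID4B fell by 0.74 in Kyse410 (SE 0.0658) and did not pass in TE10 (−0.07, SE 0.0833, edgeR adjusted p = 0.55). The methylcytosine dioxygenase gene TET3 fell by 0.42 in Kyse410 (SE 0.0489) and rose by 0.45 in TE10 (SE 0.0573), with a line difference of −0.87 (SE 0.0753). The edgeR adjusted p of the calls named here was 0.0115 or below.

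A further list held 41 genes reported as imprinted, in some cases only in certain tissues or with dispute. After matching to identifiers and leaving out members, 38 remained, of which 19 were tested. Of them 2 rose and 5 fell in TE10, and 4 rose and 8 fell in Kyse410. Called either way were 36.8% of the 19 in TE10 and 63.2% in Kyse410, against 38.8% and 49.3% of all genes, so the TE10 share was near that of all genes. RASGRF1, an exchange factor gene imprinted in mouse, fell by 1.34 in TE10 (SE 0.232) and by 1.37 in Kyse410 (SE 0.123), and the retinoblastoma gene RB1 fell by 0.36 (SE 0.0592) in TE10 and 0.28 (SE 0.0551) in Kyse410. Near MEST, the carboxypeptidase gene CPA4 rose by 0.51 (SE 0.0838) in TE10 and 1.41 (SE 0.0986) in Kyse410. Next to the KCNQ1OT1 domain, OSBPL5 fell by 0.65 (SE 0.0618) in TE10 and rose by 0.17 (SE 0.0537) in Kyse410. TSSC4 rose by 0.43 (SE 0.0843) in TE10 and fell by 0.24 (SE 0.0863) in Kyse410, with a line difference of −0.67 (SE 0.121). HM13 rose by 0.14 (SE 0.048) in Kyse410 and ZC3H12C fell by 0.25 (SE 0.0561) in Kyse410. Genes that lie near the member loci made another list of 54, and their own imprinting was not assessed. Of these, 52 remained after the same steps and 43 were tested. Among those tested, 13 were higher and 10 lower in TE10, and 16 were higher and 13 lower in Kyse410. Near ZDBF2, NRP2 rose by 0.79 (SE 0.0605) in TE10 and 1.07 (SE 0.0621) in Kyse410. MYBL2 (0.45, SE 0.0407; 0.16, SE 0.0428 in Kyse410) and COBL (0.61, SE 0.0968) rose in TE10, and FIGNL1 (0.81, SE 0.0671) and BAG3 (0.60, SE 0.0552) rose in Kyse410. Near DIRAS3, GNG12 fell by 0.64 (SE 0.049) in TE10 and 0.62 (SE 0.0436) in Kyse410. Near PLAGL1, UTRN fell in TE10 to a fold of 0.501 (SE 0.0579 on the log2 scale) and by 0.65 (SE 0.0483) in Kyse410. Near ZDBF2, EEF1B2 fell by 0.67 (SE 0.048) in Kyse410 and rose by 0.14 (SE 0.0453) in TE10. Near NAP1L5, the interferon-induced ligase gene HERC5 fell by 0.80 (SE 0.0866) in TE10 and 1.72 (SE 0.072) in Kyse410. Each of these passed edgeR's test at 0.05. Called either way were 53.5% of the tested neighbours in TE10 and 67.4% in Kyse410, 66.7% of the tested members in TE10 and 79.2% in Kyse410, and 38.8% of all genes in TE10 and 49.3% in Kyse410. Whether these shares differ was not tested.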

How the data were processed

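Per the submitters' processing notes, the tools were HISAT2 2.1.0, HTSeq 0.9.1, bcl2fastq 2.19 and DESeq2, on the build GRCh37.p13, with no order or settings. Which annotation release and strand setting applied is not given in sources used here. The deposited files hold raw counts, as whole reads per gene and library, followed by HTSeq's counters. Between 42.88 and 44.66% of a library's reads matched no feature and were left out of totals. Symbols were matched for 52339 of 57820 identifiers with GENCODE and symbol tables, and UHRF1 was named by hand from ENSG00000034063. Exon lengths and overlaps come from GENCODE for GRCh38, another build, and serve only as lengths and shares.

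Genes were kept by filterByExpr (minimum count 10), which left 16060, and scaled by TMM. All 12 libraries entered one edgeR 4.0.16 quasi-likelihood fit (R 4.3.3) that had 1 mean for each group, leaving 8 residual degrees of freedom. The contrasts took the shRNA over the scramble within each line, the Kyse410 response less the TE10 response, and Kyse410 over TE10 in scramble cells. Benjamini-Hochberg adjustment ran over every tested gene, with calls at an adjusted p below 0.05. The SE of a difference combines those of its 2 parts, and 95% intervals use the residual degrees of freedom. The p-values also borrow degrees of freedom across genes, so the intervals are wider than those the tests would give. The procedure was also run on simulated counts with the same spread for all genes, no line difference and changes in a single group. That setting is simpler than these data, so the run is no support for the calls. Replicates of a group differed by a chi-square per degree of freedom of 1.57 to 2.92, above counting error. Members, lists and tests were chosen with earlier results of these data known. All 38 members are named, with UHRF1 and, from each other list, the 3 smallest adjusted p each way in each knockdown comparison. DNMT1 and the PEG10 neighbours CASD1, PON2 and PON3 were named besides. Alternatives were other scalings, no filter, DESeq2 1.42.0, fits of the compared groups, a replicate block and leaving out each library. Python 3.11.15, pandas 2.3.3, SciPy 1.17.1 and matplotlib 3.10.9 made tables and plots.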

Additional observations from a re-analysis of the deposited data

Results flagged for a closer look

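The response to the shRNA differed between the lines, by the test of the difference itself, for 15 of the 24 tested members (edgeR adjusted p under 0.05). The values are log2 fold changes in Kyse410 minus those in TE10. They were 1.93 for IGF2, 1.59 for MKRN3, 1.40 for TP73, 0.93 for PEG10, 0.89 for SLC22A18, 0.63 for SGCE, 0.58 for H19, 0.42 for GRB10, 0.39 for INPP5F and 0.35 for ZDBF2 on the positive side. On the negative side they were −0.70 for IGF2R, −0.69 for MEST, −0.36 for PHLDA2, −0.22 for BLCAP and −0.21 for UBE3A. The differences of MKRN3, SGCE, UBE3A, ZDBF2, BLCAP and INPP5F were lost under some settings, with adjusted p of 0.0527 to 0.215 for MKRN3, 0.0584 to 0.0618 for SGCE, 0.0552 to 0.124 for UBE3A, 0.0728 to 0.139 for ZDBF2, 0.0782 to 0.102 for BLCAP and 0.0724 for INPP5F. SLC22A18, TP73 and MEST were called in opposite directions in the 2 lines. Among all genes tested, 38.9% passed the same test.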

How the results depend on the processing

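Of 96 results (24 members in 4 comparisons), 64 kept their direction and their side of the threshold under every setting run. None of the 67 called results changed sign, and 14 lost the call under at least 1 setting. The count of members called was 13 to 17 for TE10, 17 to 20 for Kyse410, 12 to 15 for the line difference and 17 to 20 for Kyse410 against TE10 when single libraries were left out. DESeq2 called 10 members for the difference, against 15 in edgeR. UHRF1 stayed called in both lines throughout. The alternative that set library totals without H19 and mitochondrial mRNAs was chosen after seeing the data, and it left the count for the difference at 15 and that for Kyse410 at 19.

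The sign changed only for 12 results that were not called. When single libraries were left out, the log2 difference between the lines ranged from −0.025 to 0.186 for CDKN1C, −0.282 to 0.147 for FAM50B, −0.011 to 0.348 for KCNQ1OT1, −0.133 to 0.35 for L3MBTL1, −0.384 to 0.024 for NNAT and −0.38 to 0.294 for PPP1R9A. The TE10 fold change ranged from −0.163 to 0.026 for KCNQ1OT1, −0.261 to 0.223 for L3MBTL1 and −0.288 to 0.514 for MKRN3, the Kyse410 one from −0.075 to 0.284 for KCNQ1OT1, and Kyse410 against TE10 from −0.032 to 0.058 for GRB10. Upper-quartile scaling gave 0.005 for the GNAS difference and −0.002 for L3MBTL1 in TE10. The other scaling, by size factors of the DESeq2 kind, gave −0.008 for the PPP1R9A difference, and no filter gave −0.009 for L3MBTL1 in TE10. DESeq2 gave 0.012 for MKRN3 in TE10. The cause was not tested.

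Same-numbered libraries of a line had correlations of deviations from the group mean of −0.005 to 0.037, and differently numbered ones −0.058 to 0.033. The labels do not say whether the replicate numbers pair the libraries. Counting error enters these correlations, so they do not decide it. With the replicate block, the members called numbered 16 for TE10, 19 for Kyse410, 15 for their difference and 17 for Kyse410 against TE10, and the log2 fold change of MKRN3 in TE10 was 0.015. Depth limits the members with under 100 reads a library, such as KCNQ1OT1, NNAT, FAM50B, MKRN3 and PPP1R9A, all with SEs of at least 0.204 in each line.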
